A study of Mus musculus with 9 samples.

Results

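The genes described here prepare peptides for display on major histocompatibility complex (MHC) class I. They are Nlrc5, a transactivator of class I genes, the immunoproteasome subunits Psmb8, Psmb9 and Psmb10, the proteasome activator subunits Psme1 and Psme2, the peptide transporter subunits Tap1 and Tap2, the class I chaperone gene Tapbp, and the aminopeptidase gene Erap1. These 10 genes were named by symbol, with earlier results of these data known, and were found by Ensembl identifier among the 29288 genes of the count table. All 10 passed the filter on low counts, which left 18933 genes to test.

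Bulk RNA-seq was performed on intestinal epithelial cells (IECs) of wild-type (WT) female C57BL/6J mice that received an i.p. injection of 2 μg α-galactosylceramide (αGal), a lipid that CD1d presents to natural killer T (NKT) cells, or of PBS. Live EpCAM+ Ter119- CD31- CD45- cells were sorted from crypt cells of the proximal small intestine at 18 h after PBS (control), at 18 h after αGal (18h-αGal) or at 72 h after αGal (72h-αGal), with 3 libraries in each group. Controls were collected at 18 h, so in any comparison with the 72h-αGal group the treatment and the time of sampling cannot be told apart. The study's methods give an age of 7 to 10 weeks for its mice and 3 mice in each group of the αGal experiment, so each library was taken as 1 mouse, and the study names among its limitations that its mice were not littermates.

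Cytosolic proteins are cut into peptides by the proteasome. In cells that respond to interferons, newly built proteasomes take up the immunosubunits in place of their constitutive counterparts and can be capped by the PA28 activator, which is built from the products of Psme1 and Psme2. The TAP1-TAP2 transporter then moves peptides into the endoplasmic reticulum, where ERAP1 trims them and tapasin, the product of Tapbp, helps to load them onto class I molecules. NLRC5 does not bind DNA by itself and acts at class I and class I-related promoters together with the RFX complex, and IECs are known to express class I molecules constitutively.

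Library totals ran from 8887861 counts in control replicate 3 to 32722293 counts in control replicate 1. Control replicate 3 also stood apart from the other controls for these genes, as described before the comparisons below. The epithelial markers summed to between 85625 and 131141 normalised counts per library, with 1 of 8 called, Krt18 at 72 h against 18 h (log2 fold change 0.54). The markers of crypt and villus lineages summed to 149990 to 183407 in control, 119455 to 190703 in 18h-αGal and 161928 to 198191 in 72h-αGal libraries, and 1 of 8 was called. That was Chga, of enteroendocrine cells, called in all 3 comparisons, with 978 to 1103 in control, 1330 to 1897 in 18h-αGal and 370.1 to 562 in 72h-αGal libraries. Olfm4, of crypt base cells, had 23867, 18022 and 5859 in 18h-αGal against 26289 to 48687 in the other libraries. Krt20, of differentiated villus cells, had 2804 to 7729 in control, 5974 to 7901 in 18h-αGal and 1314 to 3944 in 72h-αGal, so control and 18h-αGal overlapped. Alpi, another marker of the crypt and villus lineages, had 11534 to 23931 in control, 12328 to 34174 in 18h-αGal and 7736 to 17053 in 72h-αGal. None of these genes was called. The summed leukocyte markers ran from 183 to 191 in control, from 125 to 175 in 18h-αGal and from 199 to 266 in 72h-αGal libraries, with 16 of 19 markers in the table, 8 tested and 0 called in any comparison by edgeR. Endothelial markers summed to 51.1 to 64.5 in control, 14.4 to 25.2 in 18h-αGal and 30.1 to 36.3 in 72h-αGal libraries. Fibroblast markers summed to 34.2 to 59.4, 5.67 to 13.8 and 2.02 to 29.0 in the same order, and none of the 5 erythroid markers was in the table. The part of these cell types, epithelial lineages included, in the results below was not tested. In bulk RNA, fewer cells of a type and less RNA per cell cannot be told apart.

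Of the 10 genes, 5 lie close together within the MHC region of chromosome 17. By the RefSeq annotation of GRCm38.p6, Tapbp spans chr17:33919478-33929290, Psmb9 chr17:34182030-34187330 on the minus strand, Tap1 chr17:34187556-34197225, Psmb8 chr17:34198195-34201454 and Tap2 chr17:34204479-34216321. Nlrc5 (chr8:94434335-94527272) and Psmb10 (chr8:105935728-105938392) are on chromosome 8, Psme1 (chr14:55578494-55581527) and Psme2 (chr14:55587440-55591101) are neighbours on chromosome 14, and Erap1 is at chr13:74639573-74693205. Psmb9 and Tap1 are transcribed away from each other, and 225 bases separate their start sites. This stretch is shown because an immunosubunit gene and a transporter gene, which both rose, start at its ends. It is given on the plus strand, from the Psmb9 start to the Tap1 start, with a CCAAT box and a GC box in capitals, at chr17:34187331-34187555.
Psmb9-Tap1: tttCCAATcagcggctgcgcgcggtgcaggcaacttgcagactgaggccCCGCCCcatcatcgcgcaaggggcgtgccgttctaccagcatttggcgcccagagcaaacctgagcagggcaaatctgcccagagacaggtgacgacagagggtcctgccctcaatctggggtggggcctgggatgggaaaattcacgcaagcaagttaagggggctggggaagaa

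The RefSeq promoter windows, of 300 bases with 250 before and 50 from the start site, covered 8 of the 10 genes, and Nlrc5 and Tap2 were not among them. Both strands were searched for the core of the interferon-stimulated response element (GAAA, any 2 bases, GAAA), to which interferon regulatory factors bind, and for a CCAAT box and a GC box. The 8 genes had 9 windows. The response element core was found for Erap1 and Psme1, in 2 of the 9 windows, and in 3.44% of all 32851 windows. CCAAT was found for Psmb9, Tap1 and Tapbp, in 3 of the 9 windows, and in 37.4% of all windows. The Psmb9 and Tap1 windows overlap and hold the same copy. The GC box GGGCGG was found for 6 of the 8 genes, in 7 of the 9 windows, and in 35.7% of all windows. The matches to the response element core are shown within 30 bases of the plus strand of GRCm38.p6, with the match in capitals. The Erap1 stretch is chr13:74639839-74639868 and the Psme1 stretch chr14:55578493-55578522, each with the response element core on the other strand.
Erap1: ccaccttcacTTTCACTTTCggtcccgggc
Psme1: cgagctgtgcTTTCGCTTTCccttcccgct

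Values below are normalised counts, which are raw counts divided by a size factor for each library. All 10 genes were highest in control replicate 3 among the controls. For Nlrc5 this library had 7.93 times the mean of control replicates 1 and 2, a ratio above that of 99.3% of the genes tested, while the median ratio over all tested genes was 0.965. The ratio was 3.04 for Psmb8, 2.44 for Tap1, 2.05 for Psmb9, 2.05 for Tap2 and 1.76 for Tapbp, and it lay between 1.23 for Erap1 and 1.52 for Psme2 in the remaining genes. Across the 10 genes it was above that of at least 72.6% of the genes tested, the lowest share being that of Erap1. Control replicate 3 was also above every 72h-αGal library for 10 of 10 genes and below every 18h-αGal library for 10 of 10. The share of all tested genes in this order is not given here. The summed leukocyte markers of control replicate 3, at 183, were the lowest of the controls, whose other values were 184 and 191. Among epithelial markers, Krt20 was 7729 in this library and 3566 and 2804 in control replicates 1 and 2, and Vil1, of the brush border, was 26216 against 16431 and 13050. Alpi was 23931 in this library against 22883 and 11534, and so near the value of control replicate 1. Lgr5, of crypt stem cells, was 932 against 2424 and 3241, and Olfm4 was 26289 against 40052 and 47952. Their part in the values of control replicate 3 was not tested. The 10 genes' comparisons with the control group are therefore given with and without this library. It was set apart by these same genes, so leaving it out raises their fold changes and narrows the control spread by choice. Values without it, with control replicates 1 and 2 left, are a description and not an independent test.

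Nlrc5, the transactivator, had the widest range of the 10 genes. Normalised counts were 96.9, 103 and 794 in control replicates 1 to 3, 2491, 2957 and 2471 in 18h-αGal and 627, 412 and 648 in 72h-αGal. The 18h-αGal libraries were all above the other 6, and control replicate 3 lay above the 72h-αGal libraries, which in turn lay above control replicates 1 and 2. At 18 h the fitted log2 fold change against control was 3.12 ± 0.87 (SE), with an edgeR adjusted p of 0.101, so Nlrc5 did not pass the threshold of 0.05. Without control replicate 3 the log2 fold change was 4.72 ± 0.23, a 26.4-fold difference with an edgeR adjusted p of 1.04e-08. The adjusted p over the other alternatives ran from 0.00291 with limma-trend to 0.232 without 18h-αGal replicate 2, and DESeq2 gave no p for this gene. The long non-coding RNA gene 9330175E14Rik shares 78 exonic bases with Nlrc5 on the opposite strand. It had 5.87, 3.80 and 23.8 normalised counts in control, 132, 147 and 105 in 18h-αGal and 13.9, 24.2 and 16.2 in 72h-αGal, and at 18 h it rose by 3.76 ± 0.64 on the log2 scale (edgeR adjusted p = 0.00343), or by 4.67 ± 0.62 without control replicate 3.

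**Figure D1:**
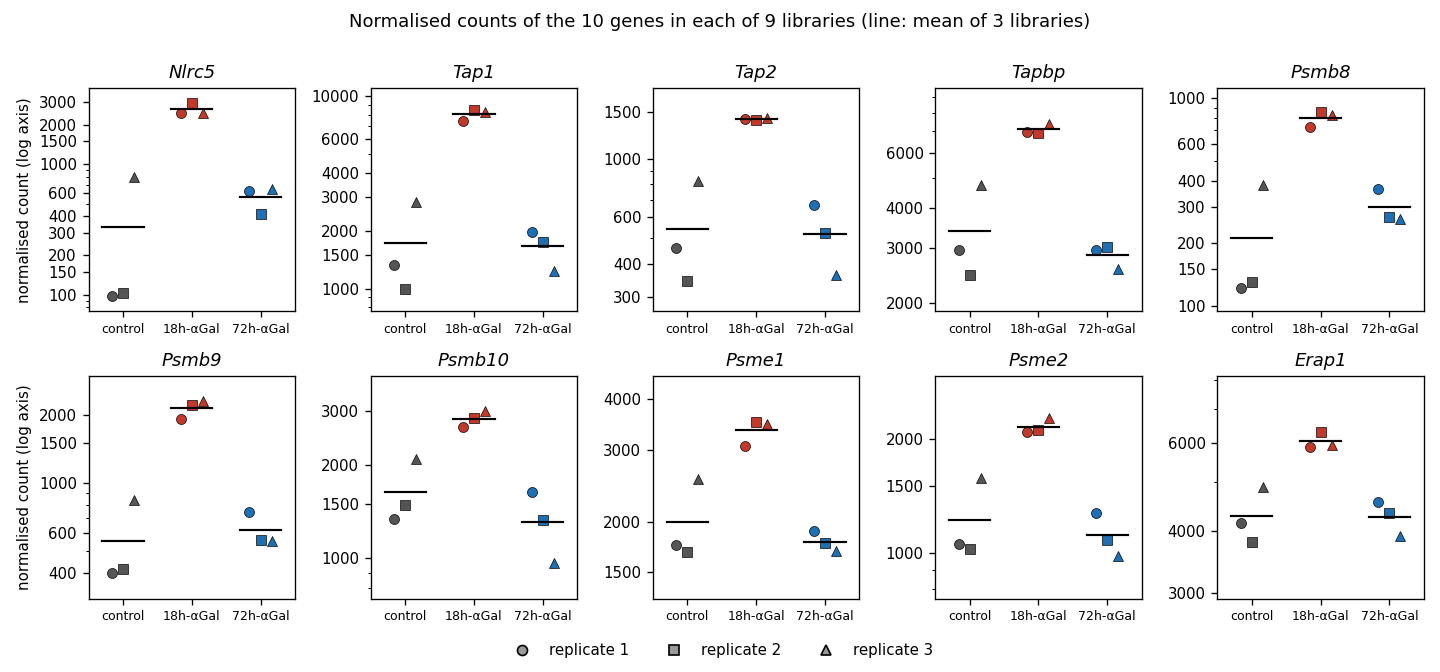
Normalised counts (log axis, with a range of its own in each panel) of the 10 genes in the 3 control, 3 18h-αGal and 3 72h-αGal libraries, where each symbol is 1 library, its shape the replicate number, and the line the group mean. The 18h-αGal libraries lie above the other 6 in all 10 panels, and control replicate 3 (triangle) is the highest control in each.

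The immunoproteasome subunit genes rose at 18 h. Psmb8, which encodes the subunit that takes the place of PSMB5, had 122, 130.0 and 383 normalised counts in control, 728, 858 and 831 in 18h-αGal and 366, 268 and 261 in 72h-αGal. Psmb9, whose product takes the place of PSMB6, had 399, 416 and 834 in control, 1917, 2208 and 2299 in 18h-αGal and 745, 559.7 and 549.7 in 72h-αGal. Psmb10, whose product takes the place of PSMB7, had 1339, 1493 and 2087 in control, 2652, 2840.4 and 2999.6 in 18h-αGal and 1640.2, 1332 and 964 in 72h-αGal. For each of the 3 genes the 18h-αGal libraries did not overlap with either other group, whereas control and 72h-αGal overlapped. The log2 fold change at 18 h was 2.00 ± 0.37 for Psmb8 (edgeR adjusted p = 0.00974), 1.99 ± 0.25 for Psmb9 (0.000840) and 0.80 ± 0.18 for Psmb10 (0.0212). Without control replicate 3 the first 2 values were 2.68 and 2.39, and Psmb10 was 2.00-fold higher than in control. The call of Psmb10 was lost without control replicate 1, control replicate 2, 18h-αGal replicate 2 or 18h-αGal replicate 3, with edgeR adjusted p between 0.0553 and 0.102.

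The PA28 subunit genes Psme1 and Psme2 rose by smaller amounts. Psme1 had 1753, 1680.1 and 2549 normalised counts in control, 3075, 3521 and 3472 in 18h-αGal and 1893, 1770.0 and 1695 in 72h-αGal. Psme2 had 1057, 1025 and 1579 in control, 2096, 2121 and 2272 in 18h-αGal and 1274, 1083 and 983 in 72h-αGal. The lowest 18h-αGal library was above the highest control for both genes. The log2 fold change at 18 h was 0.76 ± 0.14 for Psme1 (edgeR adjusted p = 0.00628) and 0.84 ± 0.16 for Psme2 (0.00660), and 0.97 and 1.06 without control replicate 3. Both calls held without any 1 of the 9 libraries. Exons of Psme1 overlap those of Emc9 over 39.6% of their length and exons of Psme2 overlap those of Rnf31, a subunit of a ubiquitin ligase, over 30.8%, in each case on the opposite strand, and the strand setting of the counting is not given in the sources used here. Emc9 had a log2 fold change of -0.42 ± 0.37 at 18 h (edgeR adjusted p = 0.578), and Rnf31 rose by 0.77 ± 0.16 (0.0107).

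The transporter subunit genes Tap1 and Tap2 rose as well. Tap1 had 1333, 992 and 2834 normalised counts in control, 7422, 8473 and 8258 in 18h-αGal and 1975, 1756 and 1242 in 72h-αGal. Tap2 had 459.9, 345 and 823 in control, 1417, 1399 and 1423 in 18h-αGal and 667, 522 and 365 in 72h-αGal. The 18h-αGal libraries stood above all others for both genes. For Tap2 they differed from each other by a CV of 0.892%, the lowest of the 10 genes at 18 h. The other genes ran from 3.38% for Tapbp to 10.4% for Nlrc5. In control the CV of Tap2 was 46.0%, with control replicate 3 the highest library. At 18 h the log2 fold change was 2.25 ± 0.38 for Tap1 (edgeR adjusted p = 0.0166) and 1.41 ± 0.28 for Tap2 (0.0138). Without control replicate 3 these values were 2.79 and 1.81. Tap1 lost its call without control replicate 1, 18h-αGal replicate 2 or 18h-αGal replicate 3 (edgeR adjusted p from 0.0547 to 0.0678), and Tap2 without control replicate 1 or 18h-αGal replicate 2 (0.0779 and 0.0574). Tap1 and Psmb9 share 743 exonic bases on opposite strands, 12.4% of those of Tap1 and 19.6% of those of Psmb9, so reads of this stretch cannot be told apart if strand was not used.

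In the endoplasmic reticulum steps, both genes rose at 18 h. Tapbp had 2938, 2453 and 4738 normalised counts in control, 6987, 6934 and 7374 in 18h-αGal and 2954, 3017 and 2575 in 72h-αGal. Erap1 had 4137, 3804 and 4895 in control, 5895, 6292 and 5933 in 18h-αGal and 4574, 4331 and 3907 in 72h-αGal. Again the 18h-αGal libraries were above all others for both genes. The log2 fold change was 1.09 ± 0.19 for Tapbp (edgeR adjusted p = 0.00510) and 0.51 ± 0.11 for Erap1 (0.0162), the smallest of the 10, and 1.40 and 0.61 without control replicate 3. Erap1 lost its call without control replicate 1, control replicate 2 or 18h-αGal replicate 2 (edgeR adjusted p from 0.0720 to 0.0829). Exons of Tapbp overlap those of Zbtb22 on the same strand over 20.9% of their length, and Zbtb22 had a log2 fold change of 0.14 ± 0.17 at 18 h (edgeR adjusted p = 0.692). Exons of Erap1 overlap those of Cast on the opposite strand over 10.3%, and Cast had a log2 fold change of -0.15 ± 0.13 (0.582).

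Counted together, 9 of the 10 genes were called higher at 18 h and 0 lower by edgeR at an adjusted p under 0.05, where 3.27% of all tested genes were called higher and 2.69% lower. For 10 of 10 genes the 18h-αGal and control libraries did not overlap, with 18h-αGal higher, which was so for 11.5% of all tested genes. The median log2 fold change of the 10 genes was 1.25, against -0.03 over all tested genes. Without control replicate 3, 10 of 10 were called higher, the median was 1.60, and 7.66% of 20326 tested genes were called in either direction. The count was 5 of 10 without control replicate 1 or without 18h-αGal replicate 2. Over all tested genes the number called also varied with the library left out, and its range is given below.

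**Figure D2:**
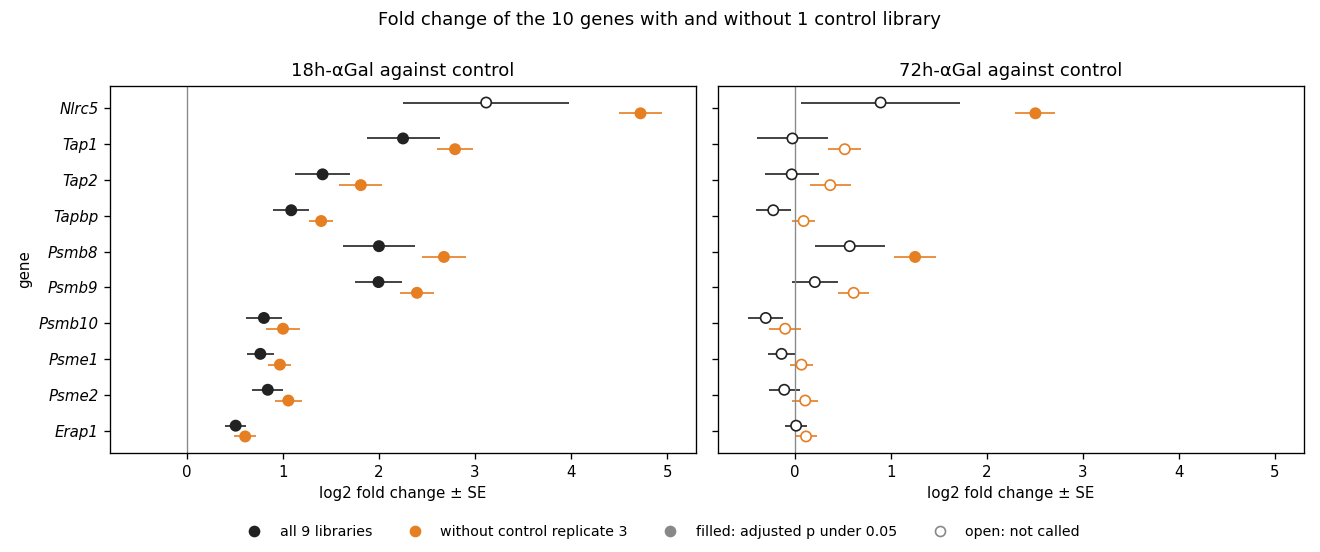
Log2 fold change (± SE, edgeR) of the 10 genes at 18 h (left) and at 72 h (right) against control, with all 9 libraries (black) and without control replicate 3 (orange), where filled points have an adjusted p under 0.05. At 18 h, 9 points are filled with all libraries and 10 without control replicate 3, and at 72 h the counts are 0 and 2 (Nlrc5 and Psmb8).

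At 72 h, no gene of the 10 was called against control by edgeR, and 0 of 10 had an unadjusted p under 0.05, where 0.0264% and 5.94% of all tested genes passed these thresholds. DESeq2 called 0 of the 9 genes for which it gave a p. The log2 fold changes were positive for 4 genes and negative for 6, with a median of -0.03, and the groups overlapped for all 10, where 6.36% of all tested genes were higher with no overlap. The largest was that of Nlrc5, 0.89 ± 0.83 (edgeR adjusted p = 0.937), followed by Psmb8 with 0.57 ± 0.37 (0.885), and the lowest was that of Psmb10, -0.30 ± 0.18 (0.885).

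Of these 72 h results, whether Nlrc5 and Psmb8 were called depended on control replicate 3. Without it, Nlrc5 was 5.68-fold higher at 72 h than in control (2.51 ± 0.21 on the log2 scale, edgeR adjusted p = 2.17e-05). Psmb8 was then 2.38-fold higher, with 1.25 ± 0.22 on the log2 scale and an edgeR adjusted p of 0.0323. In that fit 20 of 20326 tested genes were called, or 0.0984%. All 3 72h-αGal libraries lay above control replicates 1 and 2 for Nlrc5, Psmb8 and Psmb9, 3 of the 10 genes. The share of all tested genes for which this was so is not given here. Psmb9 and Tap1 did not pass the adjusted threshold in that fit, with log2 fold changes of 0.61 ± 0.16 (edgeR adjusted p = 0.554) and 0.52 ± 0.17 (0.874). The other 6 genes were between -0.10 and 0.37. Among the 72h-αGal libraries, replicate 3 was the lowest for 9 of the 10 genes and the highest for Nlrc5.

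From 18 h to 72 h after αGal, all 10 genes had a negative log2 fold change and 9 of the 10 were called lower by edgeR. The libraries of the groups did not overlap for 10 of 10. Control libraries enter this comparison through the shared count filter, scaling and estimate of spread, and not through the group means compared. Of all tested genes, 6.04% were called lower and 4.18% higher by edgeR, and 16.3% were lower with no overlap. The log2 fold change was largest for Tap1, which fell by 2.27 ± 0.38 (edgeR adjusted p = 0.0106), and smallest for Erap1, which fell by 0.49 ± 0.11 (0.0125). For Nlrc5 the value was -2.22 ± 0.82 (edgeR adjusted p = 0.161), which did not pass. Without control replicate 3 it was -2.22 with an edgeR adjusted p of 5.85e-07, and 10 of 10 genes were called lower, where 12.8% of 20326 tested genes were called in either direction. Psmb8 fell by 1.43 ± 0.36 (edgeR adjusted p = 0.0272), a call that was lost without any 1 of the 6 αGal libraries, with adjusted p between 0.0553 and 0.131. Tap1 lost its call without 72h-αGal replicate 3 (edgeR adjusted p = 0.0567), and Erap1 without that library (0.0704) or 18h-αGal replicate 2 (0.0608).

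In the order of levels, the 18h-αGal group was the highest for each of the 10 genes, and the control and 72h-αGal groups overlapped for all 10, although without control replicate 3 Nlrc5 and Psmb8 were higher at 72 h as given above. Group means ± SD for Nlrc5 were 331 ± 401 in control, 2639.8 ± 275 in 18h-αGal and 562 ± 130.1 in 72h-αGal normalised counts (n = 3 each). To compare genes, counts were also divided by the length of the canonical transcript. Per kb, Nlrc5 was the lowest of the 10 genes in control, with a mean of 43.7 ± 52.9 normalised counts per kb, and Psme2 the highest, with 1264 ± 322. At 18 h Tap1 was the highest, with 2593 ± 179 per kb. With the summed length of all exons in place of the canonical transcript, Psmb10 was the highest in control, at 947 per kb, and at 18 h, at 1634 per kb, so the order among the abundant genes depended on the length used.

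To ask whether immunosubunits moved more than their constitutive counterparts, the ratio of each pair was taken within each library, per kb of canonical transcript, so that the scaling of libraries cancels. The ratio of Psmb8 to Psmb5 was 0.928, 0.944 and 2.87 in control, 3.22, 5.89 and 3.40 in 18h-αGal and 2.18, 1.70 and 2.70 in 72h-αGal. The ratio of Psmb9 to Psmb6 was 0.291, 0.433 and 0.682 in control, 1.15, 1.22 and 1.52 in 18h-αGal and 0.508, 0.505 and 0.549 in 72h-αGal. Both ratios were higher in every 18h-αGal library than in any other, by 2.95-fold and 2.91-fold against control in the geometric mean. The ratio of Psmb10 to Psmb7 was 2.15, 2.37 and 2.97 in control, 2.76, 2.92 and 2.71 in 18h-αGal and 2.16, 2.41 and 1.40 in 72h-αGal, and control and 18h-αGal overlapped (1.13-fold). The overlap came from control replicate 3, and the 18h-αGal libraries were all above control replicates 1 and 2.

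With 3 libraries against 3, the two-sided exact permutation test cannot give a p below 0.1, so none of the 9 comparisons of ratios could pass 0.05. That smallest value was reached by Psmb8 to Psmb5 and by Psmb9 to Psmb6 at 18 h against control and at 72 h against 18 h, and by Psmb10 to Psmb7 at 72 h against 18 h (adjusted over the 9 comparisons, 0.18 each by exact permutation). The exact permutation p of the others was between 0.4 and 0.7. At 72 h against control, the log2 difference was 0.66 for Psmb8 to Psmb5, 0.24 for Psmb9 to Psmb6 and -0.35 for Psmb10 to Psmb7. Without control replicate 3 they were 1.20, 0.55 and -0.22. At 18 h against control the log2 differences in the same order were 1.56, 1.54 and 0.18, and without control replicate 3 they were 2.10, 1.86 and 0.31. By exact permutation of 3 libraries against 2, each of these had p = 0.2, below which that test cannot go. Of the counterparts themselves, Psmb7 rose at 18 h by 0.65 ± 0.16 on the log2 scale (edgeR adjusted p = 0.0255), while Psmb5 had 0.62 ± 0.30 (0.258) and Psmb6 0.50 ± 0.17 (0.101).

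**Figure D3:**
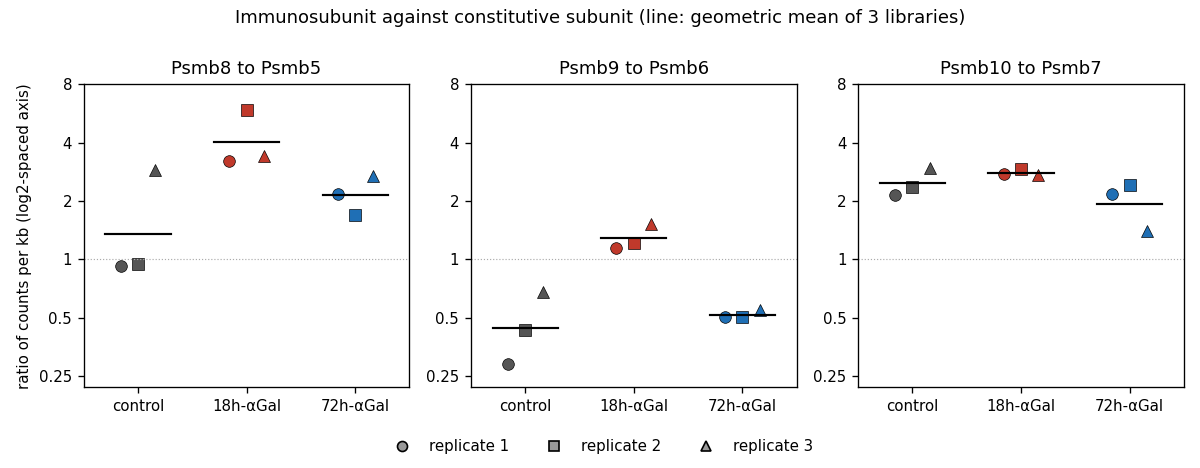
Ratio of each immunosubunit gene to its constitutive counterpart (normalised counts per kb of canonical transcript, log2-spaced axis) in each of the 9 libraries, where the shape marks the replicate number, the solid line the geometric mean of 3 libraries and the dotted line a ratio of 1. The 18h-αGal libraries are above all others for Psmb8 to Psmb5 and for Psmb9 to Psmb6, and for Psmb10 to Psmb7 they are below control replicate 3 and above control replicates 1 and 2.

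Of 47 other genes of the class I pathway, all were tested, and at 18 h 24 were called higher and 0 lower by edgeR. Their median log2 fold change was 0.60. Of all tested genes, 3.27% were called higher and 2.69% lower. The non-catalytic genes of the 20S core, Psma1 to Psma7 and Psmb1 to Psmb4, were called higher in 11 of 11 cases, with log2 fold changes from 0.54 for Psmb1 to 1.05 for Psma3 and a median of 0.82. In Psma3, for example, normalised counts were 1313, 1316 and 1158 in control and 2211, 2649 and 2939 in 18h-αGal. Of the 5 assembly factor genes, 1 was called, that of the maturation factor POMP (0.66 ± 0.16, edgeR adjusted p = 0.0259). The activator genes Psme3 and Psme4, which are not part of PA28αβ, were not called, with 0.36 ± 0.12 (0.101) and 0.24 ± 0.11 (0.221).

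The partners of peptide loading were called in 7 of 7 cases, with a median log2 fold change of 1.06. The class I heavy chain genes H2-K1 and H2-D1 rose by 1.18 ± 0.21 (edgeR adjusted p = 0.00678) and 1.22 ± 0.23 (0.0130), and B2m, the light chain, by 1.20 ± 0.24 (0.0159). The chaperone genes Calr, Pdia3 and Canx rose by 0.99, 0.93 and 0.48, and Tapbpl, a tapasin-related gene, by 1.06. B2m had 13671, 11387 and 24297 normalised counts in control, 35771, 38525 and 38223 in 18h-αGal and 16434, 15759 and 12402 in 72h-αGal, with control replicate 3 between the other controls and the 18h-αGal libraries. Without that library the log2 fold changes at 18 h were 1.58 for B2m, 1.52 for H2-K1 and 1.61 for H2-D1. Among 7 other peptidase genes, Lap3, a leucine aminopeptidase, was the 1 called, at 1.41 ± 0.20 (0.00179). The other 6 were between -0.11 and 0.38.

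Of 12 genes in a list of partners and upstream regulators of Nlrc5, to which Ciita was added, 3 were called higher at 18 h, among them Ciita and Irf1. Ciita, the class II counterpart of Nlrc5, had 384, 319.9 and 865 normalised counts in control, 2861, 2950.0 and 2982 in 18h-αGal and 864, 649.5 and 531 in 72h-αGal. Its log2 fold change at 18 h was 2.53 ± 0.35 (edgeR adjusted p = 0.00500), and 3.06 ± 0.19 without control replicate 3. Irf1, an interferon-induced transcription factor, rose by 0.76 ± 0.16 (edgeR adjusted p = 0.0135). The RFX genes Rfx5, Rfxap and Rfxank, the NF-Y genes Nfya, Nfyb and Nfyc, and Creb1, Atf1 and Irf2 were not called, with log2 fold changes from -0.16 to 0.26.

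At 72 h against control 0 of these 47 genes were called by edgeR, where 0.0264% of all tested genes were called. From 18 h to 72 h the count was 24 lower and 0 higher, where 6.04% of all tested genes were called lower and 4.18% higher. Control replicate 3 had the highest control value for 24 of the 47 genes. How often this was so over all tested genes is not given here. By list, its median ratio to the mean of control replicates 1 and 2 was 1.33 over the 7 loading partners and 1.07 over the 11 other core genes, with the highest single values in Ciita (2.46), H2-D1 (1.96) and B2m (1.94), against a median of 1.90 over the 10 genes described here. Without that library 24 of the 47 genes were called at 18 h, of which 24 were shared with the fit to all libraries, and 0 at 72 h. Without control replicate 1 or 18h-αGal replicate 2 the count at 18 h was 15 or 14. The range over all tested genes when 1 library was left out is given below.

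**Figure D4:**
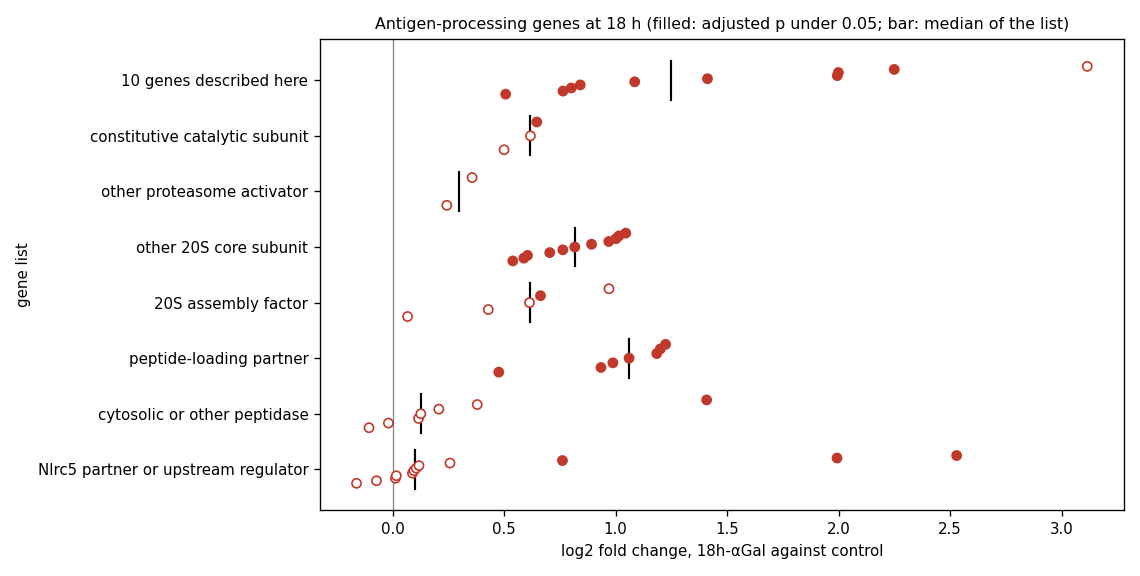
Log2 fold change at 18 h against control (x axis) of the 10 genes described here and of the 47 other pathway genes by list (y axis), where each point is a gene, filled points have an edgeR adjusted p under 0.05 and the bar is the median of the list. The 11 other core genes and the 7 loading partners are all filled, while 1 of 7 other peptidases is. In the list of partners or regulators of Nlrc5, which also holds Ciita, 3 of 12 are filled.

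Likeness of profile was described by Pearson's r of log2 counts scaled to library size over the 9 libraries, among 11098 tested genes with a mean of at least 100 counts. The libraries share their groups, and the 3 18h-αGal libraries stood apart from the other 6, so r is given as a description. The 5 genes outside the 10 with the profile most like that of Nlrc5 were Cd74 (0.989), H2-Aa (0.987), H2-Eb1 (0.986), H2-DMb1 (0.979) and H2-Ab1 (0.978), all of which belong to the MHC class II pathway. Among the 10 genes, r with Nlrc5 was highest for Psmb8 (0.988) and Psmb9 (0.939) and lowest for Psmb10 (0.738). For the mean standardised profile of the 10 genes, the most similar were B2m (0.994), H2-D1 (0.992), Lgals9 (0.991), which encodes a galectin, Ctsz (0.990), a lysosomal protease gene, and Adar (0.988), which encodes an interferon-inducible RNA-editing enzyme.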

How the data were processed

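IECs of 9 samples were profiled by ribodepleted, directional RNA-seq with 100 bp reads. Per the labels and the study's methods, the authors aligned reads with HISAT2 and counted them per gene with featureCounts (Subread). The deposited raw counts are whole reads per gene, and the deposited normalised counts are a signal obtained by the authors as raw counts divided by DESeq2 1.42.0 size factors. The submitters' processing notes name GRCm38 (mm10) and the study's methods GRCm39. Coordinates and sequences here are those of RefSeq GRCm38.p6. Symbols, exon overlaps and lengths come from GENCODE vM39, which matched 28480 of 29288 identifiers.

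Raw counts were tested with edgeR 4.0.16 (R 4.3.3), using filterByExpr, TMM, robust quasi-likelihood F tests over all 9 libraries in 3 groups, and Benjamini-Hochberg adjustment over 18933 genes. SEs were derived from the F statistic. The alternatives were DESeq2 1.42.0, limma 3.58.1 on log2(normalised count + 1), other scaling, filter and fit settings, a log2 fold change of at least 1, and leaving out each library. A count of 3, taken as the lowest detectable, equals 1.76 to 7.13 normalised counts, depending on the library. Replicates differed beyond counting noise (chi-square per degree of freedom from 13.7 to 44.8). The fit was tested on simulated data.

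The genes and pathway lists were chosen with earlier results of these data known. Named genes are the 10 in every comparison, pathway genes that were called, Psmb5, Psmb6 and Psmb7, and the 5 genes most like Nlrc5 or the mean profile. Other pathway genes, and the genes whose exons overlap those of the 10, were named after their values were seen. Of the called pathway genes, 1 is not reported here.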

Additional observations from a re-analysis of the deposited data

Results flagged for a closer look

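For 9 of the 10 genes, the 72h-αGal and 18h-αGal groups differed by the direct edgeR contrast. No control was collected at 72 h, so this is a difference between the αGal groups, not between effects against matched controls. The log2 fold change between those groups was -2.27 for Tap1, -1.44 for Tap2, -1.31 for Tapbp, -1.43 for Psmb8, -1.79 for Psmb9, -1.10 for Psmb10, -0.90 for Psme1, -0.95 for Psme2 and -0.49 for Erap1. The edgeR adjusted p of these 9 genes ran from 0.00114 for Psmb9 to 0.0272 for Psmb8. Nlrc5, at -2.22, did not pass. Groups of 3 libraries are too small for the search for single outlying samples, so control replicate 3 was not tested as one.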

How the results depend on the processing

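Over 17 alternatives (16 for Nlrc5, for which DESeq2 gave no p), the direction at 18 h held for the 10 genes in 169 of 169 values, 18 of which lost the call and 3 gained it. Requiring a log2 fold change of at least 1 left 5 of the 10 genes, 10 of the 47 pathway genes and 426 of 1128 genes at 18 h, and 10 of the 47 and 682 of 1936 genes from 18 h to 72 h. Fitting the 2 groups alone gave 593 genes at 18 h. At 72 h against control, 5 genes were called, 30 with DESeq2, 13 with no count filter, 3 without the robust fit, 1 with the replicate block and 3 with limma-trend. Leaving out 1 library in turn gave ranges at 18 h of 432 to 1556 genes, 5 to 10 of the 10 and 14 to 24 of the 47. It gave 0 to 20 genes and 0 to 2 of the 10 at 72 h, and 831 to 2593 genes, 6 to 10 of the 10 and 20 to 25 of the 47 from 18 h to 72 h.

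Some signs turned at 72 h against control, all in values that had not passed the threshold with all libraries. Tap1 was 0.0573 with the block and 0.0671 with limma-trend, Tap2 0.000307 with the block, and Erap1 -0.00198 with DESeq2 size factors and -0.00129 with DESeq2. Leaving out 1 library gave -0.297 to 0.520 for Tap1, -0.269 to 0.369 for Tap2, -0.403 to 0.0913 for Tapbp, -0.240 to 0.0694 for Psme1, -0.213 to 0.108 for Psme2, -0.0573 to 0.117 for Erap1 and -0.0627 to 0.552 for the log2 ratio of Psmb9 to Psmb6. The highest value of each of these ranges was the one without control replicate 3. Why that library differed was not tested. Replicate numbers did not pair the libraries (correlations of deviations from -0.150 to 0.115). With the replicate block, 8 of the 10 genes were called at 18 h, and Psmb10 had an edgeR adjusted p of 0.0607. The share of all tested genes called with the block at 18 h is not given here. Erap1 at 18 h missed the threshold with the 2 groups alone (edgeR adjusted p = 0.0523), and Psmb8 from 18 h to 72 h with no count filter (0.0623).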
